A study of Mus musculus with 6 samples.

Results

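Open chromatin at 10 claudin genes of the mouse kidney was described from a single list of accessible intervals called by ATAC-seq (assay for transposase-accessible chromatin with sequencing). The genes were Cldn1, Cldn2, Cldn3, Cldn4, Cldn5, Cldn7, Cldn8, Cldn10, Cldn16 and Cldn19. An interval was counted for a gene when it overlapped the gene or the 3 kb upstream of it, which gave 72 of the 279569 intervals in the list. All 10 genes had at least 1 such interval, beside 83.2% of the 21757 protein-coding genes on the same 21 chromosomes.

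The labels assign 3 libraries to wild type (WT) and 3 to a tubule-specific Acly knockout, and give the treatment of all 6 as Control. The tissue was kidney cortex, per the study's methods. Per the study's methods, the knockout mice (Acly cKO) carried Acly fl/fl alleles with Ksp-Cre, also called Cdh16-Cre, a driver active along most of the renal tubule, from the proximal tubule to the collecting duct. The controls were littermates with Acly fl/fl and no Cre. No age is given for these libraries in the labels. Acly encodes ATP-citrate lyase, the enzyme that makes cytosolic acetyl-CoA from citrate. The methods describe the driver for tubular cells, whereas Cldn5 and Cldn1 are used by cells outside the tubule. The peak names show that libraries were pooled before peaks were called, and which libraries entered the pool is not written in the files. The methods also mention WT data of an earlier deposit, which were not analysed here and may be part of the pool. The list therefore holds 1 value at each position, with no value for a genotype or an animal, so no difference between WT and Acly cKO, no replicate error and no check of the Acly deletion could be computed. The WT libraries came from batches 1 and 2 and the Acly cKO libraries from batches 4 and 5, so an effect of genotype and one of batch cannot be told apart. In whole tissue, fewer cells of a type and less open chromatin per cell cannot be told apart either.

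Claudins are membrane proteins of the tight junction, the seal between neighbouring epithelial or endothelial cells. Each junction carries several claudins, and their mixture sets whether ions and water may pass between the cells, through paracellular pores, or are held back by a barrier. Along the nephron the mixture changes from the leaky proximal tubule, through the cation-selective thick ascending limb, to the tight collecting duct.

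Fold enrichment is the ratio of the signal at a summit (a local maximum of an interval) to the background estimated by the peak caller, and -log10 q is the significance that the caller gave the summit. Every interval is described by its highest summit. Distances are counted from the start site of the canonical transcript unless another start is named, with negative values upstream. The fold enrichments moved in steps of 0.0655, and each of their 1549 distinct values in the list came with 1 q value, so both measures order the summits alike. A background that varied from place to place would not give such a match, so the folds show no correction for local background. As only 1 pooled value exists for each gene, the order of genes below is a description, and values a few steps apart cannot be separated by any error.

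The canonical start sites of all 10 claudin genes lay inside an accessible interval, beside 71.2% of protein-coding genes. Fold enrichment at these starts ran from 5.70 at Cldn5 to 40.3 at Cldn3, with a median of 14.96. In descending order, the start-site fold enrichments were 40.3 at Cldn3, 22.3 at Cldn8, 21.7 at Cldn1, 16.8 at Cldn4, 14.99 at Cldn7, 14.9 at Cldn10, 14.1 at Cldn19, 11.4 at Cldn2, 8.05 at Cldn16 and 5.70 at Cldn5. Cldn2 alone of the 10 genes lies on the X chromosome, and no value was adjusted for the number of chromosome copies. Whether its place in the order depends on that number was not tested. Of the 10 genes, 8 had a start-site interval that reached 10-fold, beside 58.6% of protein-coding genes. In Cldn2 and Cldn19 that value belonged to a summit 566 and 1096 bp upstream, and the summits nearest to their starts had 7.53 and 6.22, which would place both below Cldn16 at 8.05. The highest values were those of Cldn3, Cldn8 and Cldn1, and the lowest that of Cldn5. Whether this order follows the cells that use the genes was not tested. Among the 15496 protein-coding genes with an interval over the start, the median was 31.8 (quartiles 15.3 and 49.5), so 1 claudin gene lay above the median of all genes and 6 lay below the lower quartile.

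**Figure D1:**
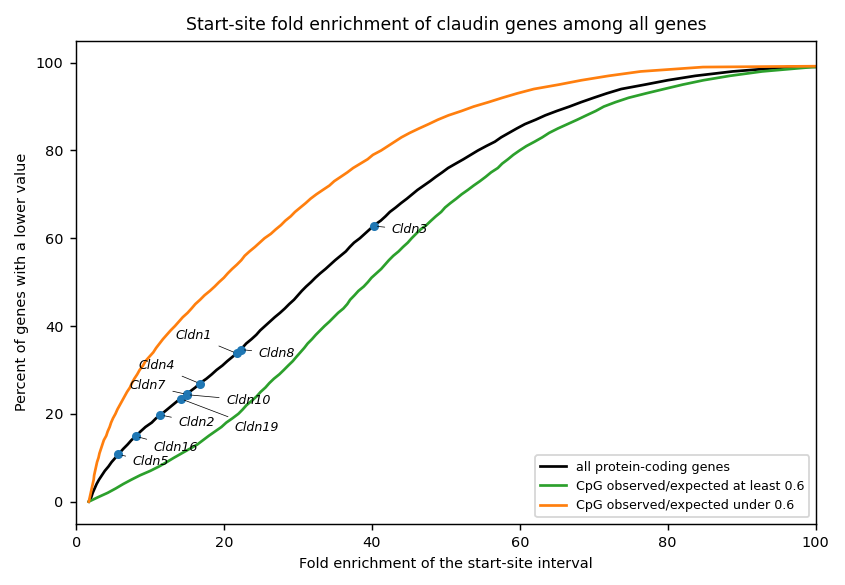
Fold enrichment of the start-site interval (x axis) against the percent of protein-coding genes with a lower value (y axis), for all genes with such an interval (black), for genes with a CpG-rich promoter (green) and for genes with a CpG-poor promoter (orange). The blue points are the 10 claudin genes, of which Cldn3 at 40.3 is the only one above the median of 31.8.

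The plot of summits around each canonical start shows a dominant summit beside the start of Cldn3, Cldn8, Cldn1 and Cldn4, a stronger site away from it at Cldn2, and low values throughout at Cldn5 and Cldn16. The strongest sites of Cldn10 lie beyond its limits. In 8 of the 10 genes the interval over the canonical start was the strongest of all the gene's intervals. The same share over all protein-coding genes was not computed, so this count has no background. For Cldn3, with 1 interval, it was given in advance, and for Cldn19 it rests on a summit 1096 bp upstream.

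**Figure D2:**
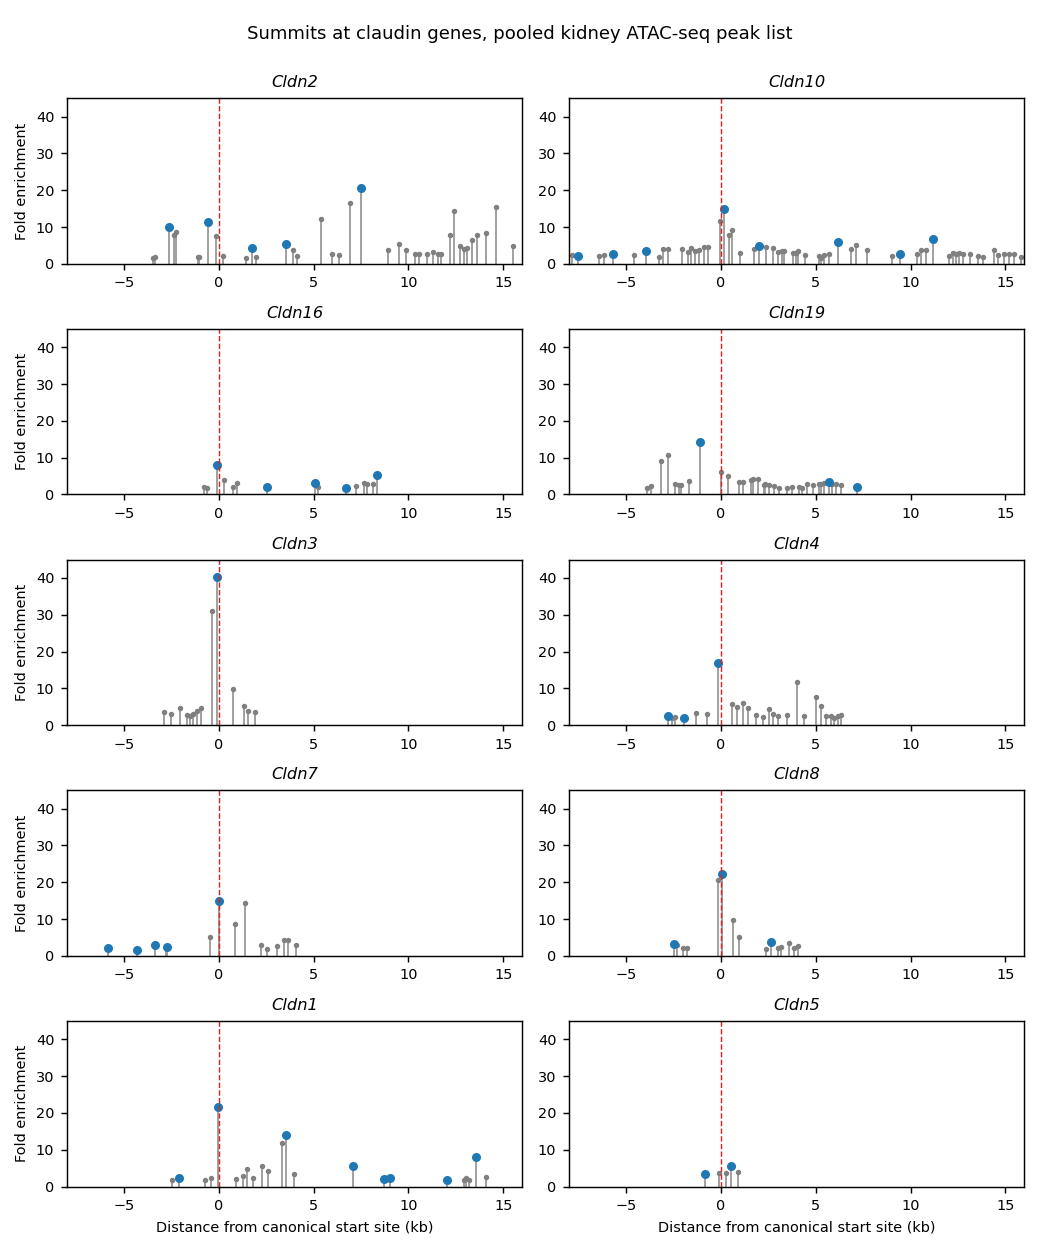
Fold enrichment of every summit (y axis) by distance from the canonical start site in kb (x axis) for each claudin gene, limited to 8 kb upstream and 16 kb downstream. Blue points are the highest summit of an interval, grey points are the other summits, and the dashed line is the start. Cldn3 reaches 40.3 beside its start, whereas the highest point of Cldn2, 20.6, lies 7498 bp downstream.

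The sequences that follow are the 150 bases before the start of 6 genes that span the range of start-site values, and they are printed because promoter composition differed among them. They were read from GRCm39 and run 5′ to 3′ on the strand of the gene. Capitals mark matches to any of 10 short motifs searched on both strands: HNF1 (GTTAAT), HNF4 (CAAAGTCCA), ERR (TCAAGGTCA), grainyhead (AACCNGTT), AP-1 (TGANTCA), factors of the GATA family (AGATAA), octamer factors (ATGCAAAT), ETS (CCGGAA), the TATA box (TATAAA) and the GC box (GGGCGG). A match is a description of letters, not a bound site.
Cldn3, chr5:135014918-135015067, plus strand: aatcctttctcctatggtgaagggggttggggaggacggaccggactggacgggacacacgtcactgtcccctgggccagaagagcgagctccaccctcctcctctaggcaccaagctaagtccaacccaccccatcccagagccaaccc
Cldn8, chr16:88360072-88360221, minus strand: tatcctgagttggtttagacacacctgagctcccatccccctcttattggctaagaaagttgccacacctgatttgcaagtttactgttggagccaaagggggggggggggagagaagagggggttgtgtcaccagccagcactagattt
Cldn1, chr16:26190597-26190746, minus strand: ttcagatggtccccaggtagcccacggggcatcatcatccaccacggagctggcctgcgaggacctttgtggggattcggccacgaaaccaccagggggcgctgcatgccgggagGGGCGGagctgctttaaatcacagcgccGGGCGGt
Cldn2, chrX:138701330-138701479, plus strand: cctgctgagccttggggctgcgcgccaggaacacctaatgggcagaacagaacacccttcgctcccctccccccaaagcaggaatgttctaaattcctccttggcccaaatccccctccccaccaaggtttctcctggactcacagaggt
Cldn16, chr16:26281735-26281884, plus strand: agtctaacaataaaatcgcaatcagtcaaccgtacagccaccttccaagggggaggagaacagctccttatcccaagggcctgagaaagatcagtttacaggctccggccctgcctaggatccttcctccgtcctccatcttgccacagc
Cldn5, chr16:18595447-18595596, plus strand: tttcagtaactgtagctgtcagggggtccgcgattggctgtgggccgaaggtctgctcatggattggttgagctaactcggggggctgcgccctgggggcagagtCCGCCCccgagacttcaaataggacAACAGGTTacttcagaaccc
The stretch before Cldn8 held 0 CpG dinucleotides and that before Cldn1 held 11. Of these 6 stretches, those of Cldn1 and Cldn5 held capitals: GC boxes in both, and in Cldn5 also the grainyhead letters on the reverse strand.

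Cldn2 encodes the cation and water pore of the leaky proximal tubule. The gene (chrX:138701480-138712135, plus strand) had 5 intervals, and 77.1% of its region was covered by them. The interval over its start (chrX:138700280-138701773) reached 11.4-fold with a -log10 q of 119, but its highest summit lay 566 bp upstream. The summit nearest to the start, 159 bp upstream of it, was at 7.53. An upstream interval (chrX:138697984-138699676) reached 10.0-fold at 2641 bp before the start, and both intronic intervals in the first part of the gene were lower, at 4.39 and 5.37. The interval at 4.39 covered another annotated coding start, 2056 bp into the gene, where the nearest summit was at 1.96. The strongest interval was an 11134-bp stretch with 24 summits (chrX:138706260-138717393) that began inside the gene and ran past its end. Its highest summit was intronic, 7498 bp downstream of the start, with 20.6-fold enrichment and a -log10 q of 292. Other high summits in the same stretch were 16.6 at 6916 bp and, beyond the gene end, 14.4 at 12412 bp and 15.5 at 14620 bp. A further annotated coding start of Cldn2, 5350 bp into the gene, fell within this stretch, and a summit of 12.2 lay 37 bp after it. The highest enrichment at Cldn2 was thus in the gene body and not at the canonical start.

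The 100 bases centred on that intronic summit are printed because they hold the strongest site of the gene, and no motif of the 10 matched in them.
Cldn2 intron, chrX:138708928-138709027, plus strand: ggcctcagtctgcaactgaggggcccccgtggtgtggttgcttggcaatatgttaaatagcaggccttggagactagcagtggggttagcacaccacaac

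Cldn10 makes 2 kinds of pore protein from alternative first exons, claudin-10a, an anion pore of the proximal tubule, and claudin-10b, a cation pore of the thick ascending limb. The annotation places the coding starts of Cldn10 (chr14:119025320-119112901, plus strand) 66824 bp apart. They are called the upstream and the downstream start here, and the annotation used did not pair them with the protein names. Both starts lay in accessible intervals of similar height: 13.2-fold with a -log10 q of 150 at the upstream start (chr14:119024204-119026850) and 14.9-fold with a -log10 q of 181 at the downstream, canonical start (chr14:119088809-119093227). The highest summits lay 55 bp before the upstream start and 142 bp after the downstream start. At the downstream start the nearest summit, 69 bp before it, was lower, at 11.5, so by the nearest summit the upstream start was the higher. Their sequences differed in composition: the 150 bases before the upstream start were 32.7% G and C with 1 CpG, and those before the downstream start were 62.7% G and C with 10 CpGs.
Cldn10 upstream start, chr14:119025170-119025319, plus strand: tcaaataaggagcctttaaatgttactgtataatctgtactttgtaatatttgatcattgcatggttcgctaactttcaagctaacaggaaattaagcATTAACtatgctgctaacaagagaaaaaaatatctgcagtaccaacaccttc
Cldn10 downstream start, chr14:119091994-119092143, plus strand: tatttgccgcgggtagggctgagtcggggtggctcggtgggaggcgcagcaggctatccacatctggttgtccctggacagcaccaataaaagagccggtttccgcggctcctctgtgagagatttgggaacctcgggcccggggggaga

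Cldn10 held 37 of the 72 claudin intervals, or 51.4%, with 239 summits, and its 87582 bp made it the longest of the 10 genes. Per 10 kb of region it had 4.08 intervals, a density within the range of the other claudin genes. Of its intervals, 32 had their highest summit in an intron, 3 upstream, 1 in a 5′ UTR and 1 in a 3′ UTR. The strongest interval was not at either start. It lay upstream of the gene (chr14:119019002-119022839), with 30.5-fold enrichment and a -log10 q of 508 at a summit 4188 bp before the upstream start, and it counted for the gene because its edge reached into the 3-kb upstream stretch. The next was intronic (chr14:119030317-119032749), 22.3-fold at 5705 bp after the upstream start. Further intronic intervals in the first part of the gene reached 17.3 at 16773 bp, 14.1 at 22016 bp and 11.8 at 8641 bp. High enrichment was therefore found on both sides of the upstream start.

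At 5-fold or more there were 15 intervals of Cldn10, and 19 lay under 3-fold, between 1.70 and 2.95. The others had 3.27, 3.601 and 4.71. The spacing was uneven. When the distance between the starts was divided at its midpoint, the nearer stretch, which included the upstream start, held 11 intervals with a median of 10.3-fold, 8 of them at 5-fold or more. These 8 were the 13.2 at the upstream start, the intronic 22.3, 17.3, 14.1 and 11.8 already given, and 10.3 at 32381 bp, 6.68 at 20085 bp and 5.83 at 3464 bp. The farther stretch held 17 intervals with a median of 2.55-fold, 2 of them at 5-fold or more, 12.6 at 51705 bp and 9.69 at 44640 bp. From the downstream start to the gene end there were 7 intervals with a median of 5.89-fold, and 4 reached 5-fold. These were the 14.9 at the start itself, 8.71 at the gene end, 6.74 at 78002 bp and 5.89 at 73014 bp. The interval at the gene end (chr14:119108924-119113633, 8.71-fold) also reached Dzip1, a coding gene on the opposite strand. The starts of the noncoding genes Gm41248 and Gm49179 also lay in intervals of Cldn10.

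**Figure D3:**
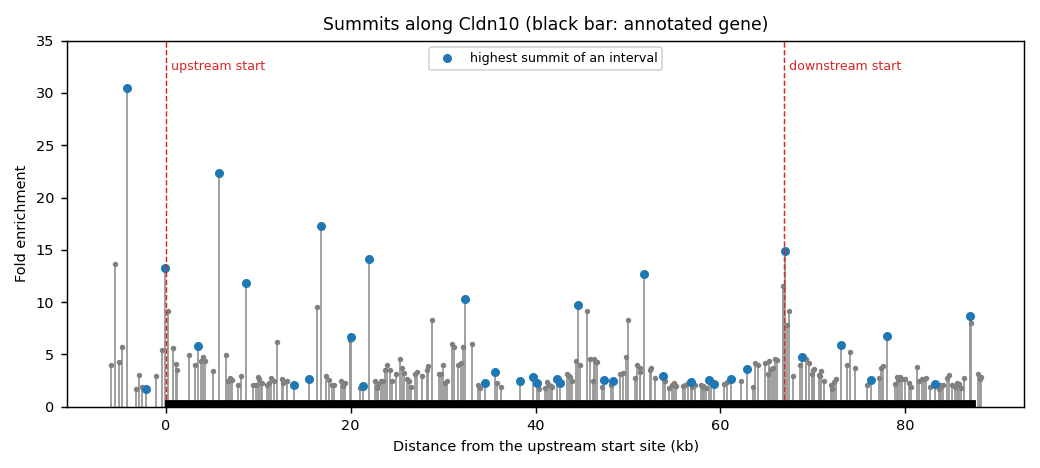
Fold enrichment of every summit at Cldn10 (y axis) by distance from the upstream start in kb (x axis), with dashed lines at both coding starts, blue points for the highest summit of each interval and grey points for the others. The tall points, 30.5 at 4188 bp before the upstream start, 22.3 and 17.3, lie on its left and in the nearer stretch of the gene, while the downstream start stands at 14.9 among lower neighbours.

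The HNF1 letters were found in the 200 bases around the highest summit of 7 of the 37 Cldn10 intervals (18.9%), and in 3 of the 35 windows of the other claudin genes (8.57%), beside 7.30% of all 279567 windows in the list. HNF1 factors are homeodomain proteins of the tubular epithelium. All 7 windows lay before the downstream start, where there were 30 intervals, and 0 of the 7 windows from that start on had a match. At a share of 7.30% over all windows, 7 windows are too few for 0 matches to set the sides of that start apart. The windows with a match included the upstream start and the intronic site at 5705 bp, but not the strongest site at 4188 bp before the gene. The 100 bases around these 2 sites outside the start are printed to show this difference.
Cldn10 upstream site, chr14:119021082-119021181, plus strand: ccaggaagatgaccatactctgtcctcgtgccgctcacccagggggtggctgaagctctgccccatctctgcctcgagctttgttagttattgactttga
Cldn10 intronic site, chr14:119030975-119031074, plus strand: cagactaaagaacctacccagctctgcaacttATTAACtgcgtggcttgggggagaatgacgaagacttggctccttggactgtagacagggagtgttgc

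Cldn16 and Cldn19 encode partner claudins of the thick ascending limb whose loss causes renal wasting of magnesium and calcium. Cldn16 (chr16:26281885-26301515, plus strand) was among the least open of the 10 genes. Its start-site interval (chr16:26281048-26283224) reached 8.05-fold with a -log10 q of 67.2 at 90 bp before the start, and 14.9% of all genes with a start-site interval had a lower value. Its 4 other intervals were intronic, at 1.96, 3.08, 1.77 and 5.17, and 23.4% of the region was covered, the lowest share among the 10 genes. The highest of the intronic values lay 8341 bp into the gene.

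Cldn19 (chr4:119112591-119119635, plus strand) showed a different shape, with 93.7% of its region covered by 3 intervals. The start lay within a 7270-bp interval with 21 summits (chr4:119108530-119115799). The highest summit of that interval, 14.1-fold with a -log10 q of 166, lay 1096 bp upstream, and further upstream summits reached 10.7 at 2804 bp and 9.23 at 3135 bp. The summit beside the start, 5 bp after it, was at 6.22, so the highest enrichment at Cldn19 was upstream of the start. The other intervals, over the 3′ UTR and past the gene end, reached 3.27 and 1.96. A noncoding gene on the opposite strand, Gm12927, overlaps the region and starts within an interval of Cldn19, and ATAC-seq fragments cannot be assigned to a strand.

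Cldn3, Cldn4, Cldn7 and Cldn8 are claudins of the distal nephron and collecting duct. Cldn3 and Cldn4 are barrier-forming, and Cldn4 and Cldn8 act together in the paracellular handling of chloride in the collecting duct. These 4 genes gave start-site values from 14.99 to 40.3, and in each the highest summit lay within 155 bp of the canonical start.

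Cldn3 (chr5:135015068-135016326, plus strand) had the highest enrichment of the 10 genes. A single 5065-bp interval (chr5:135012091-135017155) covered 99.5% of its region. The highest summit, 82 bp before the start, was at 40.3-fold with a -log10 q of 743, and 62.8% of genes with a start-site interval had a lower value. A further summit of 31.0 lay 359 bp upstream, and a summit of 9.76 lay 740 bp after the start, so both tall summits were upstream of the start. The noncoding genes Wbscr25, on the opposite strand, and Gm72861 overlap this region.

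Cldn4 (chr5:134973973-134975788, minus strand) started within an 8054-bp interval of 22 summits (chr5:134969335-134977388). Its highest summit reached 16.8-fold with a -log10 q of 215 at 155 bp upstream of the start. The next highest summits were downstream of the gene, 11.9 at 3999 bp and 7.53 at 4989 bp, where the interval also reached the coding gene Mettl27. The other intervals of Cldn4 were weak upstream stretches at 1.83 and 2.49. The promoter window of Cldn4, from 250 bases before to 50 after the start, held 2 matches to AP-1, letters found in 7.15% of promoters.

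Cldn7 (chr11:69852648-69858711, plus strand) has several annotated coding starts, and its canonical start lies 3574 bp after the first. The canonical start fell in a 5253-bp interval with 10 summits (chr11:69855337-69860589), where the highest summit, 14.99-fold with a -log10 q of 182, lay 5 bp before it. A summit of nearly the same height, 14.3, lay 1404 bp after it, which is 118 bp before another annotated coding start. The interval over the first annotated start (chr11:69852490-69853053) reached 3.01-fold with a -log10 q of 9.19. This was lower than at the canonical start. The remaining intervals had 2.16, 1.70 and 2.2915. The interval over the canonical start also overlaps Elp5, a coding gene on the opposite strand.

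Cldn8 (chr16:88357716-88360071, minus strand) had 1 strong interval (chr16:88358261-88361588) and a weaker one on each side. Its highest summit reached 22.3-fold with a -log10 q of 326 in the 5′ UTR, 48 bp after the start, and a close second of 20.7 lay 145 bp before the start. The flanking intervals reached 3.80 downstream of the gene, with a summit outside the counted region, and 3.34 upstream. Cldn8 thus combined the second highest start-site value of the 10 genes with a promoter window free of CpG dinucleotides.

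Cldn1, a barrier-forming claudin of many epithelia, marks the parietal epithelium of Bowman's capsule in the kidney. The gene (chr16:26175392-26190596, minus strand) had 8 intervals. That over the start (chr16:26188666-26191582) reached 21.7-fold with a -log10 q of 315 at 25 bp before the start. An intronic interval next to it (chr16:26186222-26188451) held 2 tall summits, 13.9 at 3547 bp and 11.9 at 3314 bp after the start. A further rise lay in the 3′ UTR (chr16:26176223-26177917), at 8.05, and an intronic site at 7089 bp had 5.57. The other 4 intervals were under 3-fold, at 1.70, 2.23, 1.96 and 2.23. A noncoding gene on the opposite strand, Gm41436, overlaps 6 of the 8 intervals, and its start lies outside them.

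Cldn5 encodes the barrier claudin of vascular endothelium. It had the lowest start-site value of the 10 genes. The gene (chr16:18595597-18597012, plus strand) had 2 intervals. The interval over the start (chr16:18595234-18596982) reached 5.70-fold with a -log10 q of 36.1, and its highest summit lay in the coding exon, 541 bp after the start. The summit nearest to the start, 109 bp before it, was at 3.73. The start of the noncoding gene Gm60143, on the opposite strand and 161 bp upstream, lies in the same interval. The upstream interval (chr16:18594507-18594853) reached 3.34. Of all genes with a start-site interval, 10.7% had a lower value. Against all intervals in the list, wherever they lay, 78.2% had a lower fold enrichment than the start-site interval of Cldn5.

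Other annotated genes within 10 kb of the regions were Gm15012 at Cldn2, Gm71248 at Cldn3, Cdc45 and Gm60408 at Cldn5, Gm72743 and Gm12310 at Cldn7, Gm22379 and Gm54498 at Cldn10, and P3h1 at Cldn19. None of these genes shared an interval with the claudin gene. Cldn8 and Cldn16 had no other annotated gene within that distance.

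Over all 72 claudin intervals, fold enrichment ran from 1.70 to 40.3 with a median of 3.34, beside 2.55 for all intervals in the list. At 5-fold or more there were 31 claudin intervals (43.1%), beside 24.5% of all intervals, and 31 lay under 3-fold, beside 59.0% of all. The highest summit was intronic in 45 intervals and upstream in 17. It was in a 3′ UTR in 3, a 5′ UTR in 2, a coding exon in 2, a noncoding exon in 1 and downstream in 2. In 3 intervals the highest summit lay outside the counted region. Claudin intervals were also wide: their median width was 1337 bp, beside 434 bp for all intervals, and 8 of them, in 6 genes, measured at least 5 kb (11.1%, beside 2.00% of all intervals). Gene regions contain promoters by construction, so these shares are not those of a matched set.

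Measured per length, every one of the 10 genes lay above the median protein-coding gene. Both measures depend on gene length, because the region of a short gene is mostly the 3 kb upstream of it. Cldn3, 1259 bp long, passed the median density with 1 interval, at 2.35 per 10 kb. Genes of matched length were not compared. The genes had 2.21 (Cldn16) to 6.23 (Cldn4) intervals per 10 kb, beside a median of 1.86 for all protein-coding genes. The share of the region covered by intervals ran from 23.4% to 99.5%, beside a median of 16.7%, and 9 of the 10 genes exceeded the upper quartile of 43.7%. These medians cover all protein-coding genes, those without an interval included, unlike the median start-site value, which is over genes with an interval there.

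Promoter composition was compared with start-site enrichment because CpG-rich promoters are open in most tissues. The ratio of observed to expected CpG dinucleotides, in the window from 250 bases before to 50 after the start, had a median of 0.338 in the 10 claudin genes and 0.517 in all 21757 promoters. A ratio of at least 0.6 was found in 2 claudin promoters (Cldn1, 0.663, and Cldn10 at its downstream start, 0.676), beside 43.3% of all promoters. The other 8 ran from 0 in Cldn8, through 0.118 in Cldn19, 0.193 in Cldn2, 0.286 in Cldn16, 0.324 in Cldn4, 0.353 in Cldn3 and 0.476 in Cldn5, to 0.521 in Cldn7. Across all genes, 96.7% of promoters with a ratio of at least 0.6 and 51.7% of the others had an interval over the start, and where there was one the median fold enrichment was 39.4 and 19.3. Over the 15496 genes with such an interval, Spearman's rho between the ratio and the fold enrichment was 0.42. This is a correlation across genes of 1 pooled list that shares depth and base composition, and genes are not independent replicates. Among the CpG-poor genes, 79.1% lay below the value of Cldn3, 54.9% below Cldn8 and 21.3% below Cldn5. Within bins of the CpG ratio, Cldn3 and Cldn8 stood above the upper quartile of their bin, and Cldn5, Cldn7 and Cldn10 below the lower quartile.

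**Figure D4:**
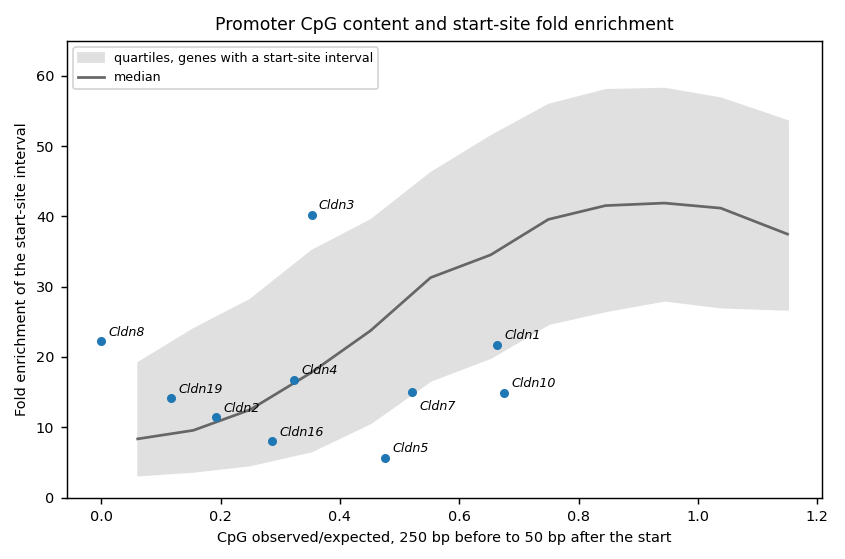
Fold enrichment of the start-site interval (y axis) against the observed to expected CpG ratio of the promoter window (x axis). The line and the shaded band are the median and quartiles of all protein-coding genes with a start-site interval, in bins of the ratio, and blue points are the 10 claudin genes. Cldn8 at 22.3 and Cldn3 at 40.3 lie above the band, Cldn5 at 5.70 and Cldn10 at 14.9 lie below it, and Cldn7 lies at its lower edge.

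Motif letters in the 10 promoter windows were as follows. The GC box was present in 6 of 10 windows (Cldn1, Cldn3, Cldn4, Cldn5, Cldn7 and Cldn19), beside 42.5% of all promoters. AP-1 letters were in 2 (Cldn4 and Cldn10, beside 7.15%), and 1 window each held the TATA box (Cldn2, beside 13.2%), the grainyhead letters (Cldn5, beside 2.07%), ETS letters (Cldn7, beside 16.9%) and the HNF1 letters (Cldn1, beside 6.88%). HNF4, ERR, GATA and octamer letters were in 0 of the 10 windows, beside 0.45%, 0.473%, 10.6% and 1.63% of all promoters. In the 72 windows around summits, AP-1 letters were in 6 (8.33%, beside 12.4% of all windows), GC boxes in 6 (8.33%, beside 8.15%), GATA letters in 3 (4.17%, beside 7.20%), the TATA box in 3 (4.17%, beside 6.81%), ETS letters in 2 (2.78%, beside 3.94%), grainyhead letters in 2 (2.78%, beside 1.69%) and the ERR and octamer letters in 1 each (1.39%, beside 0.68% and 1.06%). HNF4 letters were in 0, beside 0.884%. The HNF1 letters, in 10 windows (13.9%, beside 7.30%), were the motif with the largest difference in share, and Cldn10 supplied 7 of them.

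The claudin genes were set beside markers of the cells that use them. Intervals covered the start of 6 of 7 proximal tubule markers (5.30 to 33.1, median 13.9), 5 of 5 markers of the thick ascending limb (8.51 to 24.6, median 15.2), 2 of 3 of the distal convoluted tubule (6.22 and 8.38) and 6 of 6 of the collecting duct (4.19 to 28.4, median 13.8). For intercalated cells it was 3 of 4 (4.65 to 22.7), for podocytes 4 of 4 (3.14 to 29.5), for the parietal epithelium 2 of 2 (9.76 and 43.9), for endothelium 4 of 5 (2.75 to 8.64, median 3.57) and for immune cells 2 of 3 (1.90 and 31.2). Of 6 genes typical of other organs, 1 had an interval over its start, at 2.49. These shares stand beside 71.2% of protein-coding genes, and the kidney markers Slc22a8, Pvalb and Slc4a1, the endothelial Pecam1 and the T-cell gene Cd3e had no interval over the start. The ranges of the lists overlapped, so a claudin value does not point to one of them. Cldn2 at 11.4, for example, lay within the ranges of the proximal tubule, thick ascending limb and collecting duct markers alike, and Cldn5 at 5.70 within those of the endothelium, the proximal tubule and the collecting duct. Cldn3 at 40.3 exceeded the highest marker of each tubule list. Away from the start, the genes typical of other organs were not closed, and 1 of the 6 lacked any interval in its region. The strongest intervals of the others ran from 2.88-fold at Krt14 to 16.8-fold at Gfap. Gfap had 10 intervals, or 6.03 per 10 kb, so intervals per length do not mark use in the kidney.

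**Figure D5:**
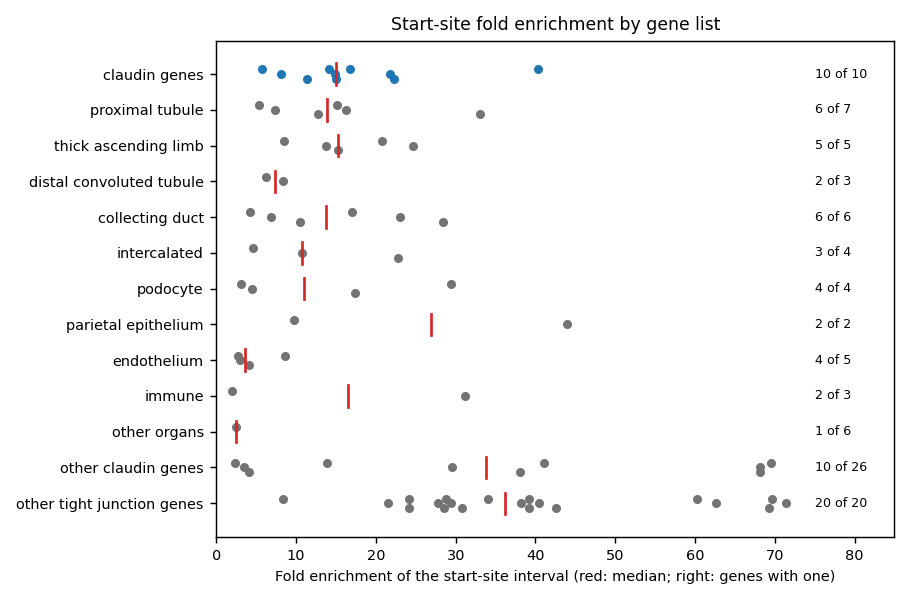
Fold enrichment of the start-site interval (x axis) of each gene in each list (rows), with the 10 claudin genes in blue, red bars at the list medians and, at the right, the number of genes with such an interval out of all genes in the list. The claudin median of 14.96 lies beside those of the proximal tubule (13.9), thick ascending limb (15.2) and collecting duct (13.8), and under that of the other tight junction genes (36.1).

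The rest of the claudin family and of the junction completed the comparison. Of 26 other claudin genes, 10 had an interval over the start, beside 71.2% of protein-coding genes. There was no interval anywhere in the region of 11, whereas 83.2% of protein-coding genes had one. Cldn12 reached 69.5 at its start, Cldn6 and Cldn9 shared the value of 68.1, Cldn23 reached 41.0, Cldn34c1 38.1, Cldn15 29.6 and Cldn11 13.8. Cldn6 and Cldn9 had 1 interval each, and whether the same interval was counted for both was not checked. Cldn14, a thick ascending limb claudin that restrains cation flux through Cldn16, had 4.12 at its start and 11.9 at the strongest of its 14 intervals. Cldn22 and Cldn24 were at 3.40 and 2.36. Start-site values of the 10 claudin genes, 5.70 to 40.3, overlapped with those of the rest of the family, 2.36 to 69.5. Their median of 14.96 was lower than the 33.8 of the other claudin genes with an interval over the start.

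The 20 other tight junction genes, which encode scaffold, adhesion and polarity proteins and regulators, all had an interval over the start, beside 71.2% of protein-coding genes. Their median was 36.1, and 19 of the 20 reached 10-fold, beside 58.6%. The highest were Tjp3 at 71.4 (a scaffold protein of the junction), Magi3 at 69.6 (a membrane-associated scaffold) and Pals1 at 69.3 (a polarity protein), and the lowest was Jam2, an adhesion molecule, at 8.31. Of the 10 claudin genes, Cldn3 alone exceeded the median of these 20 genes.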

How the data were processed

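ATAC-seq libraries of mouse kidney (3 WT and 3 Acly cKO by their labels) were represented by 1 pooled peak list, so samples were mapped to groups but not compared. Per the methods and the submitters' processing notes, the authors used fastp for trimming and Bowtie2 2.3.4.3 for alignment to mm39 (GRCm39), kept unique reads without duplicates, called peaks with MACS3 3.0.0 and removed blacklisted regions with bedtools 2.29.1. The deposited list gives fold enrichment, a linear ratio to the caller's background, and a -log10 q as the authors' caller wrote it, with an unused -log10 p, a score that the authors' caller derived from q, and the offset of the summit in bp. The deposited list of summits before filtering gives the same -log10 q, and its filtering removed 0 summits from the claudin regions. The lowest -log10 q listed was 1.37. The depth of the libraries is unknown from these values, so precision could not be given, and 0 columns held values of a single library.

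Rows (749750 summits) were grouped into 279569 distinct intervals by position, each represented by the summit with the highest -log10 q. Pooled peak calls widen and join intervals, and the narrowest was 136 bp. This is less than the extension size given in the methods, so the stated MACS3 settings may not be those of this list, which would bear on every width, fold and q value. Genes, starts and exons are those of GENCODE M39 on GRCm39, and regions ran from 3 kb upstream to the gene end. Promoter windows ran from 250 bases before to 50 after the canonical start, and summit windows were 200 bases wide. Motifs were matched exactly. No test was made, as the list pools the libraries and holds no value for any one of them. All 10 claudin genes were named, with their intervals given by value or, for the weak ones of Cldn10, by count and range, and with other claudins that had a start-site interval, the 3 highest other tight junction genes and those without such an interval, of which there were 0. Jam2, the lowest of that list, and the contrasts between genes within the text were picked after their values were seen. The members and lists were chosen with earlier results of these data known. Alternatives changed the q or fold threshold, the region, the start-site rule and the summit used. Functions were tested on simulated data. Python 3.11.15 with pandas 2.3.3, numpy 2.4.6 and matplotlib 3.10.9 was used.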

Additional observations from a re-analysis of the deposited data

How the results depend on the processing

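The 72 claudin intervals numbered 67 with q below 0.01, 52 with q below 1e-05, 69 when the highest summit had to lie in the region and 62 without upstream sequence. They became 31 at a fold enrichment of at least 5, 116 with 10 kb on either side, and 368 when summits in the region were counted in place of intervals. Of 70 counts for single genes under these settings, 39 stayed within 1.5 times the reported count, and every gene kept at least 1 interval in each setting. All 10 claudin genes and all 20 other tight junction genes kept an interval over the start at both q thresholds, at a fold enrichment of at least 5, within 1 kb and at the start of any transcript. With the highest summit required within 500 bp of the start, 7 and 19 did. The median start-site value of 14.96 was the same with the highest fold enrichment over all summits, 13.3 with the summit nearest to the start and 3.54 with the median over the summits of an interval. The Cldn10 downstream start had 11.5 and 4.12 under the last 2 settings, and its upstream start 13.2 and 5.37, so the order of the starts depends on the summit used. No paired analysis was possible because the list holds 1 pooled value at each position, and for the same reason no replicate could be left out. Depth per library is unknown.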

Other observations

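Cldn1 and Cldn16 are neighbours, as are Cldn4 and Cldn3, and the sequence between them was described after the values at the genes were seen. Between Cldn1 and Cldn16, which lie 91288 bp apart with 0 coding genes in between, 10 intervals lay wholly between the genes, 6 of them at 5-fold or more. The strongest (chr16:26217531-26223826) reached 33.7-fold with a -log10 q of 583, above every interval counted for either gene, and the next (chr16:26265570-26267619) reached 17.9. Between Cldn4 and Cldn3, with 39279 bp and 0 coding genes between them, there were 13 intervals, 5 of them at 5-fold or more, and the strongest (chr5:134994015-134996933) reached 17.7, under the start-site value of Cldn3 and beside that of Cldn4. The stretches include the 3 kb upstream of Cldn1 and Cldn4. Weak upstream intervals already counted for these genes, at 2.23 for Cldn1 and at 1.83 and 2.49 for Cldn4, therefore lie in them too. Per 10 kb the stretches held 1.10 and 3.31 intervals. None of these values links an interval to a gene.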
